A study of Mus musculus with 7 samples.

Results

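Glucocorticoid receptor sites were examined around 9 genes of the insulin, FOXO and mTOR pathways: Sgk1, Ddit4, Errfi1, Pik3r1, Irs2, Foxo1, Foxo3, Fbxo32 and Pdk4. A point near the transcription start of each gene, given to about 10 kb on the mouse mm9 assembly, was the centre of a window reaching 100 kb to each side. Summits of the 7 deposited lists were joined into 1 site when neighbouring summits lay at most 200 bp apart. A list with 1 or more of its own summits in a site was said to hold it. Of 35316 sites in the series, 86 lay in these windows. The windows can also hold sites of neighbouring genes.

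The data came from chromatin immunoprecipitation and sequencing (ChIP-seq) of the glucocorticoid receptor in mouse embryonic fibroblasts, using an antibody made in-house. The cells were derived from embryos of day 14 to 17 of gestation and used at passages 4 to 11. The 4 groups were wild type with ethanol vehicle (1 library, from pooled material), wild type with dexamethasone for 1 h (2 libraries), Klf15-/- with ethanol vehicle (2 libraries) and Klf15-/- with dexamethasone for 1 h (2 libraries). Klf15 encodes a Krüppel-like zinc-finger transcription factor, and dexamethasone is a synthetic glucocorticoid. Whether replicate libraries stem from independent cultures is not stated in the labels, and their spread may be technical. The lists hold positions and scores only, so the fibroblast label could not be checked against marker expression.

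The dexamethasone lists held between 15628 and 20169 summits and the vehicle lists between 7325 and 10034. Read depth is unknown, and a missing summit in a shorter list does not show missing occupancy. The first Klf15-/- vehicle library stood apart, since 414 pairs of adjacent summits in it were closer than 200 bp, while no other list had more than 4 such pairs. The strength of a site is given here as its score percentile, from 0 for the weakest to 100 for the strongest summit of that list. The percentile is a rank within 1 list. Lists differ in length, so percentiles of different lists are set side by side and show no change in occupancy.

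As background, insulin and growth factor receptors signal through docking proteins such as IRS2 to phosphoinositide 3-kinase, and from there to the kinases AKT, SGK1 and mTOR. AKT and SGK1 phosphorylate FOXO transcription factors, which keeps them out of the nucleus, and FOXO proteins switch on catabolic genes such as Fbxo32 and Pdk4. Glucocorticoids oppose insulin in many tissues, and several genes of this pathway are textbook targets of the receptor. The receptor binds DNA as a dimer at inverted repeats of a six-letter half-site with a three-letter spacer.

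Sgk1, the serum- and glucocorticoid-regulated kinase, carried the only site within 10 kb of a gene's point that all 4 dexamethasone lists held. This site lay on chromosome 10 from 21713433 to 21713491, 3.5 kb from the point. Its percentiles were 97.35 and 97.0 in the wild-type dexamethasone lists and 97.3 and 95.1 in the Klf15-/- dexamethasone lists, so the genotypes overlapped. No vehicle list held it, and the nearest vehicle summit was 6.90 kb away. RefSeq promoter windows, from 250 bases before to 50 bases after a start, were available for 8 of the 9 genes, 15 windows in all, with 6 for Sgk1. They were searched for the full inverted repeat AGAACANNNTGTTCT, which reads the same on both strands. Among 32851 windows of all genes, 3 held it (0.00913%), namely windows of Sgk1, Acnat2 and Gm35041. A looser form, GNACANNNTGTNC, which contains the first, stood in 156 windows (0.475%) and in the same single window among the 15. That Sgk1 window is printed because it holds the complete receptor motif (capitals, starting 189 bases before the start) at a gene with a high-ranking site in all 4 dexamethasone lists:
Sgk1 window, GRCm38.p6, chr10:21993640-21993939, plus strand: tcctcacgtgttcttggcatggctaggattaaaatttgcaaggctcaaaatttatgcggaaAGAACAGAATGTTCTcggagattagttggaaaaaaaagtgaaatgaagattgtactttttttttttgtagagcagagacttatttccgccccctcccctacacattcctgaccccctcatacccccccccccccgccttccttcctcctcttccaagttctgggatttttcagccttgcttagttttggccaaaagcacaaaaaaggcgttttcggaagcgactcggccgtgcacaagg
These coordinates belong to another assembly than the summits, so whether the summits fall in this window was not determined. The match is a description of the letters and not a measured site.

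Around the strong Sgk1 site the window held 15 sites, a number that 1.03% of all 200 kb tiles of the genome reached. Of these, 7 were held by 1 list only. The second Sgk1 site held by all 4 dexamethasone lists lay 14.8 kb above the point (chromosome 10, 21724794 to 21724866), with wild-type percentiles of 40.3 and 73.8, Klf15-/- percentiles of 68.9 and 61.2 and no vehicle summit. Vehicle lists had 4 Sgk1 summits in wild type, and 4 and 2 in Klf15-/-. After dexamethasone it was 7 and 7 in wild type against 2 and 4 in Klf15-/-. The genotypes did not overlap after dexamethasone, and the extra wild-type summits belonged to low-ranking sites.

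**Figure D1:**
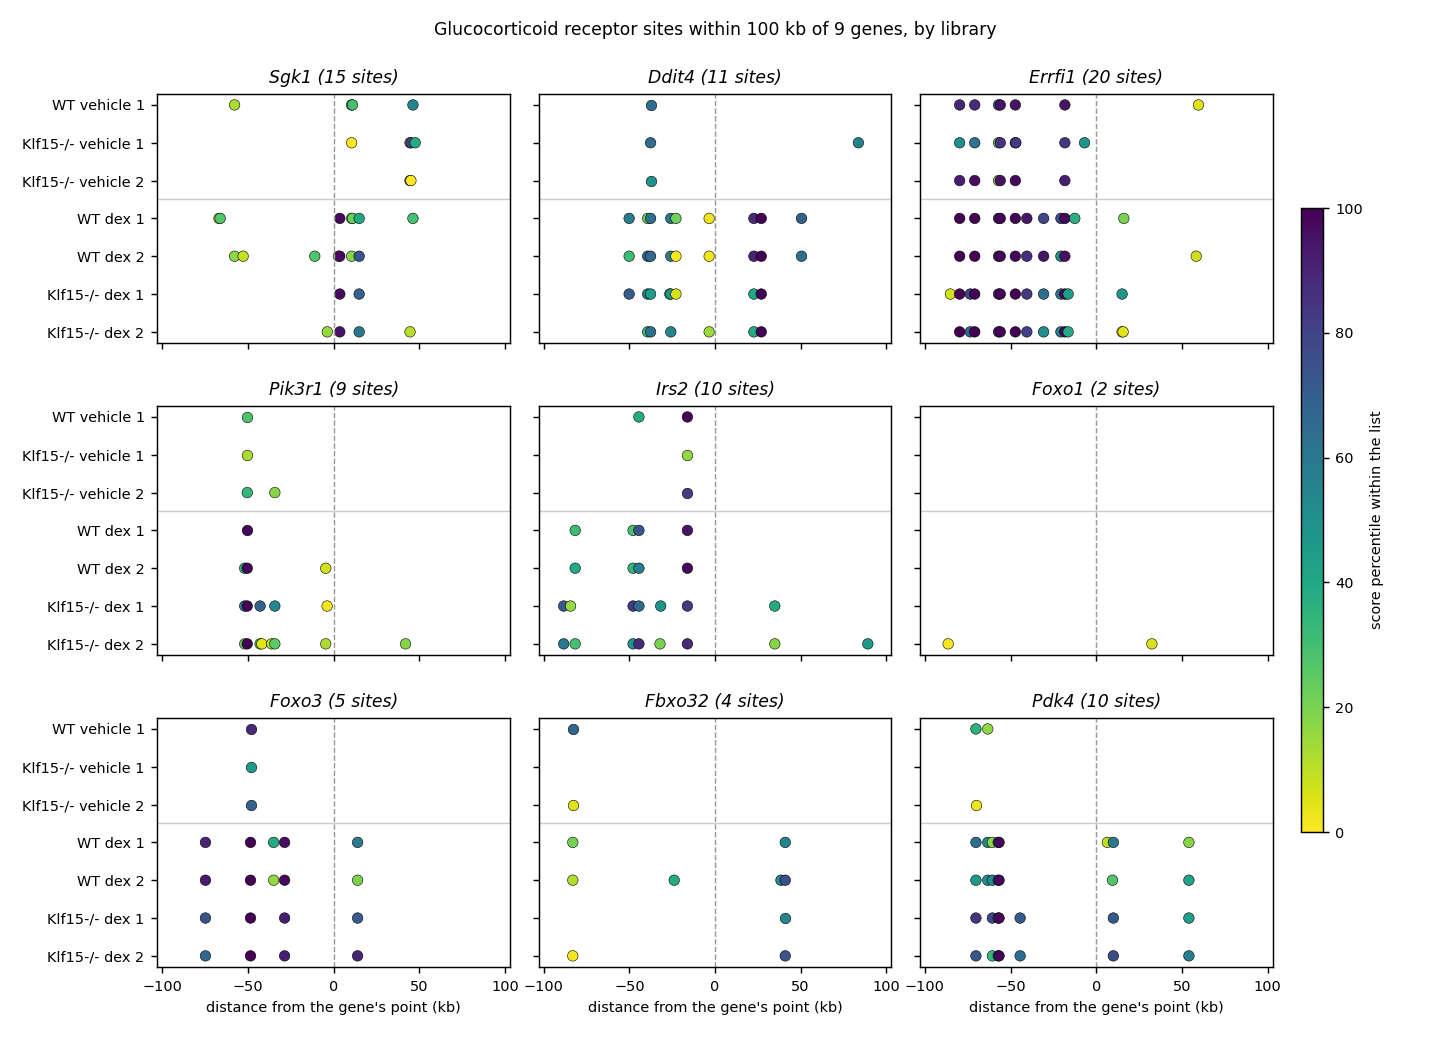
Receptor sites within 100 kb of each gene. The horizontal axis gives the distance of a site from the gene's point in kb on the chromosome, each row is 1 library, and colour gives the score percentile within that library's list. Dark columns running through the dexamethasone rows mark the strong sites, such as that 27.0 kb from Ddit4. At Errfi1 6 columns also run through the 3 vehicle rows, and Foxo1 is nearly empty.

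Over the 9 windows, the wild-type vehicle list had 19 summits (0.189% of its list, exact 95% interval 0.114 to 0.296%, counting error only). The Klf15-/- vehicle lists had 18 and 15 (0.246%, 0.146 to 0.388%, and 0.185%, 0.104 to 0.306%). The wild-type dexamethasone lists had 47 and 49 (0.301%, 0.221 to 0.4%, and 0.289%, 0.214 to 0.383%). The Klf15-/- dexamethasone lists had 47 and 54 (0.235%, 0.173 to 0.312%, and 0.268%, 0.201 to 0.349%). Every dexamethasone list thus had more summits here than every vehicle list, in both genotypes, and the dexamethasone lists were longer throughout. By share, the first Klf15-/- dexamethasone list (0.235%) lay below the first Klf15-/- vehicle list (0.246%). After dexamethasone the mean count was 48.0 ± 1.41 (SD, n = 2) in wild type. In Klf15-/- it was 50.5 ± 4.95 (n = 2), and the ranges overlapped. The mean shares of the list were 0.295 ± 0.0085% in wild type and 0.252 ± 0.0233% in Klf15-/-. Both wild-type shares lay above both Klf15-/- shares, without overlap. The intervals of the shares overlapped between all lists. No test is given between genotypes, because the smallest p that an exact permutation of 2 against 2 libraries allows is 1/3.

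Sites listed only after dexamethasone made up a larger share of these windows than of the series. Of the 86 sites, 18 (20.9%) were held by all 4 dexamethasone lists and by no vehicle list, against 7.85% of all sites of the series. With every list cut to its 7325 highest-scoring summits, the length of the shortest list, these were 6 of 48 sites (12.5%) against 5.41% of all sites. Another 10 (11.6%) were held by all 7 lists, against 6.22% of all sites. Errfi1 alone had 6 of these 10, and Ddit4, Pik3r1, Irs2 and Foxo3 had 1 each. Only 2 (2.33%) were held by all 4 dexamethasone lists and by 1 or 2 vehicle lists, against 11.3%. Together 30 sites (34.9%) were held by all 4 dexamethasone lists, against 25.4% in the series. Of these 30, 12 had a vehicle summit (40.0%), against 69.1% of the 8977 such sites of the series. Without the first Klf15-/- vehicle library the number with no vehicle summit was still 18. Vehicle lists alone held 6 sites (6.98%, against 12.7%), and 4 of these came from the first Klf15-/- vehicle library only. A single list held 31 sites (36.0%, against 38.7%), at a median percentile of 18.2.

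Pooled over the windows, the shared sites ranked high, and this rested on Errfi1, which held 9 of them. The median percentiles of the shared sites were 88.9 and 90.2 in the wild-type and 83.4 and 84.3 in the Klf15-/- dexamethasone lists. For all sites held by those 4 lists they were 68.1, 70.5, 73.7 and 74.2. Without the Errfi1 sites, the middle values in wild type were 64.9 (Pdk4 at 57.2 kb) and 73.8 (Sgk1 at 14.8 kb). In Klf15-/- they were 74.7 (Foxo3 at 74.9 kb) and 72.7 (Pdk4 at 70.2 kb), near those of the series. At or above percentile 95 in all 4 dexamethasone lists were 10 of the 86 sites (11.6%), against 1.29% of all sites. Errfi1 held those at 79.7, 70.9, 56.0, 47.2 and 18.3 kb, and Sgk1, Ddit4, Pik3r1, Foxo3 and Pdk4 held 1 each. Of 9 windows, 8 (88.9%) had at least 1 site held by all 4 dexamethasone lists, against 32.9% of 13213 tiles of 200 kb laid over the genome. At least 3 such sites were found in 5 windows (55.6%), against 8.70% of tiles. Tiles include regions without genes, unlike the windows.

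**Figure D2:**
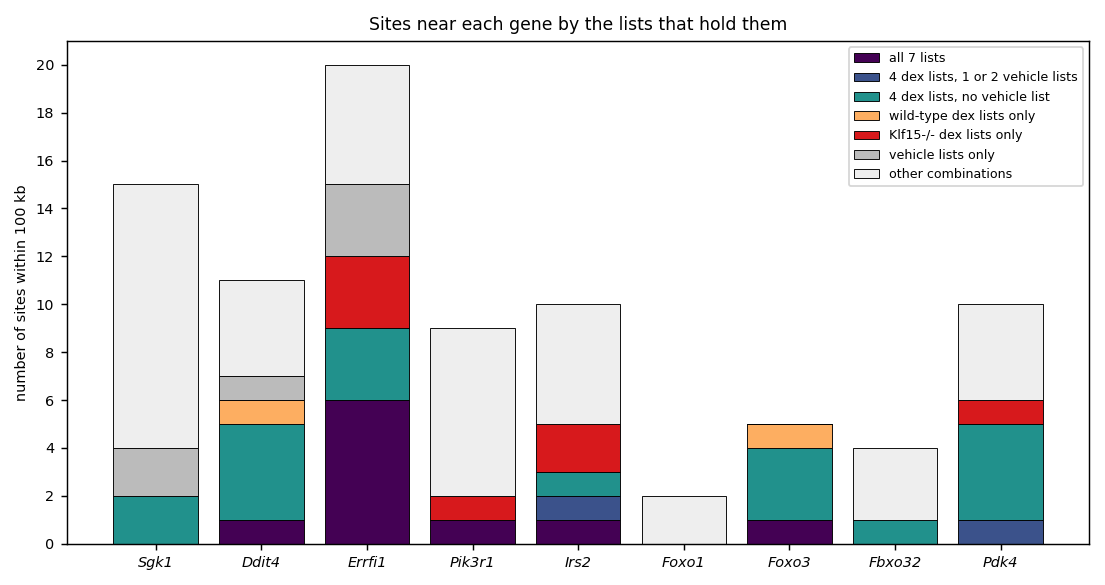
Number of sites within 100 kb of each gene, stacked by the combination of lists that held them. Errfi1 has the most sites (20) and 6 of the 10 held by all 7 lists, Ddit4 and Pdk4 have 4 shared sites without a vehicle summit each, and the 2 sites of Foxo1 belong to other combinations.

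Most of the 30 shared sites lay farther than 20 kb from the point, in windows that reach 100 kb to each side. Of the 30 shared sites, 5 lay within 20 kb of the point, 20 between 20 and 60 kb and 5 farther away, with a median distance of 42.7 kb. That is close to the 41.4 kb of all 86 sites. For the 8 genes whose strand was matched, 13 of 29 shared sites lay on the 5′ side of the point and 16 on the side into which the gene is transcribed.

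Errfi1 encodes an inhibitor of the epidermal growth factor receptor kinase, also called MIG6. It had the densest group of strong sites, and most of them were present without dexamethasone. Its window held 20 sites, 9 of them in all 4 dexamethasone lists, a number reached by 0.189% of tiles. All 9 lay on the 5′ side, between 18.3 and 79.7 kb from the point. In the RefSeq gene order Slc45a1 is the next protein-coding gene on that side, and sites were not assigned to either gene.

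The strongest Errfi1 site lay on chromosome 4 from 150150165 to 150150502, 79.7 kb from the point. It ranked 9 and 8 from the top in the wild-type and 12 and 8 in the Klf15-/- dexamethasone lists, at percentiles 99.95, 99.96, 99.94 and 99.97. In the vehicle lists it stood at 89.1 in wild type and at 50.6 and 92.3 in Klf15-/-. The same site was thus among the strongest of each dexamethasone list and listed, at a lower rank, with vehicle.

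A second site, 70.9 kb away (150158979 to 150159269), stood at 99.8 and 99.9 in wild type against 99.8 and 99.7 in Klf15-/- after dexamethasone, and at 88.2, 62.0 and 96.9 in the vehicle lists (wild type, then the 2 of Klf15-/-). The site at 56.0 kb (150173851 to 150174224) had 99.14, 98.9, 99.08 and 99.01 after dexamethasone and 95.5, 85.9 and 95.1 with vehicle. The site at 47.2 kb (150182656 to 150182856) had 98.8 and 98.5 in wild type against 99.3 and 99.2 in Klf15-/-, with 95.1, 81.0 and 97.8 in the vehicle lists. These sites were above the median of every list, and the lowest vehicle value of each came from the first Klf15-/- vehicle library. The site at 18.3 kb (150211649 to 150211807) had 97.7, 96.0, 97.6 and 97.1 after dexamethasone and 95.1, 83.7 and 91.4 with vehicle. The sixth site of all 7 lists, at 57.0 kb (150172964 to 150173131), ranked lower in the vehicle lists, with 67.5, 24.1 and 14.8 against 89.3, 90.1, 88.3 and 88.3.

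Between these, Errfi1 had 3 shared sites with no vehicle summit. The site at 40.5 kb (150189421 to 150189514) stood at 94.2 and 86.0 in wild type against 83.3 and 80.4 in Klf15-/-. The site at 30.7 kb (150199206 to 150199295) stood at 78.8 and 94.6 in wild type against 64.8 and 51.5 in Klf15-/-, again without overlap. The site at 20.6 kb (150209285 to 150209420) overlapped, at 77.1 and 48.3 against 62.3 and 58.3. The nearest vehicle summits were 6.30, 12.4 and 2.24 kb away, in the same order.

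Ddit4 encodes REDD1, an inhibitor of the mTOR complex that drives growth. Its window had 5 sites held by all 4 dexamethasone lists, and 4 of them had no vehicle summit. The strongest lay on chromosome 10 from 59437005 to 59437021, 27.0 kb from the point on the 5′ side. It stood at 99.8 and 99.7 in wild type against 99.3 and 99.4 in Klf15-/-, and the nearest vehicle summit was 56.7 kb away. Among the 4 sites of all windows that reached percentile 99 in every dexamethasone list, this was the 1 without a vehicle summit. Its neighbour at 22.7 kb (59432653 to 59432671) showed the largest gap between genotypes among the 30 shared sites, with 88.5 and 90.3 in wild type against 40.8 and 38.9 in Klf15-/-. The means differed by 49.6 percentile points and the replicates by less than 2 in either genotype.

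The other Ddit4 sites were of middle rank. The site at 25.8 kb on the gene side (59384092 to 59384209) stood at 60.7 and 58.3 in wild type against 47.0 and 54.7 in Klf15-/-. The site at 39.3 kb (59370698 to 59370801) varied as much within as between genotypes, at 21.7 and 67.9 against 58.2 and 31.2. At 37.6 kb (59372295 to 59372424) a site was held by all 7 lists, at 62.9, 66.5, 44.9 and 63.3 after dexamethasone and at 64.1, 64.5 and 49.8 with vehicle. The site nearest the point, 3.4 kb away (59406541 to 59406579), was weak, at 2.36 and 2.30 in wild type and 14.5 in 1 Klf15-/- list.

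Pik3r1, which encodes the regulatory subunit of phosphoinositide 3-kinase, had 1 shared site, which ranked high after dexamethasone and low with vehicle. It lay on chromosome 13 from 102489464 to 102489537, 50.5 kb from the point on the gene side. Its percentiles were 99.2 and 98.98 in wild type against 99.3 and 99.7 in Klf15-/- after dexamethasone, against 28.0, 12.8 and 32.8 in the vehicle lists. All 7 lists held the site, and its vehicle ranks lay in the lower part of each list. Near the point, 4.7 kb away (102535288 to 102535329), 1 list of each genotype had a weak summit, at 7.07 and 12.3.

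Irs2, the insulin receptor substrate that links the receptor to phosphoinositide 3-kinase, had 3 shared sites. The site at 16.1 kb on the gene side (chromosome 8, 10993793 to 10993988) was held by all 7 lists. It stood at 94.7 and 97.6 in wild type against 83.6 and 88.7 in Klf15-/- after dexamethasone, and at 98.5, 16.2 and 82.5 with vehicle. Its wild-type vehicle rank was higher than either wild-type dexamethasone rank, the reverse of the Pik3r1 site. The 2 remaining sites ranked lower. At 44.4 kb (10965533 to 10965617) the values were 73.5 and 57.9 against 66.0 and 88.2, with a vehicle summit in wild type only, at 38.7. At 47.8 kb (10962149 to 10962212) they were 29.2 and 34.8 in wild type against 83.5 and 49.3 in Klf15-/-, with no vehicle summit.

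The 2 FOXO genes differed widely in their listed sites. Foxo1 had none held by more than 1 list: its 2 sites came from the second Klf15-/- dexamethasone list, at percentiles 1.22 and 5.57, and the other 6 lists had no summit in the window. The stronger lay 32.5 kb from the point (chromosome 3, position 52102521). Foxo3, by contrast, had 5 sites, 4 of them held by all 4 dexamethasone lists, a number reached by 4.65% of tiles.

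The strongest Foxo3 site lay on chromosome 10 from 41951315 to 41951416, 48.6 kb from the point on the gene side. It stood at 99.8 and 99.8 in wild type against 99.5 and 99.7 in Klf15-/- after dexamethasone, and at 88.3, 46.1 and 68.6 with vehicle. The other 3 shared Foxo3 sites had no vehicle summit. At 28.7 kb (41971253 to 41971271) the values were 96.4 and 97.4 in wild type against 91.7 and 91.6 in Klf15-/-. At 74.9 kb (41925048 to 41925087) they were 89.8 and 93.1 against 74.7 and 67.0. Both sites ranked higher in wild type, without overlap. At 13.9 kb on the 5′ side (42013834 to 42013927) the order was reversed, with 58.5 and 19.9 in wild type against 71.1 and 90.1 in Klf15-/-.

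Of the 2 classic FOXO targets, Pdk4 had several receptor sites and Fbxo32 few. Pdk4 encodes the kinase that switches off pyruvate dehydrogenase and so spares glucose. Its strongest site, on chromosome 6 from 5393259 to 5393299, lay 56.7 kb from the point on the gene side. It stood at 97.8 and 98.7 in wild type against 97.8 and 99.04 in Klf15-/-, with no vehicle summit within 6.62 kb. In the RefSeq gene order Asb4 is the next protein-coding gene on that side. A weaker site close to it, at 57.2 kb (5392789 to 5392851), stood at 64.9 and 52.6 against 60.2 and 51.9. Both sites overlapped between genotypes.

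The other shared Pdk4 sites ranked lower and varied more. At 60.6 kb (5389341 to 5389439) the values were 17.0 and 52.1 against 78.4 and 33.3. At 70.2 kb (5379725 to 5379887) they were 64.3 and 46.3 in wild type against 85.1 and 72.7 in Klf15-/-, with vehicle summits at 35.6 in wild type and 2.65 in the second Klf15-/- list. On the 5′ side, at 54.1 kb (5504046 to 5504107), they were 18.1 and 42.1 against 44.4 and 57.1. The last 2 were higher in Klf15-/-, without overlap. The site nearest the point among those of at least 2 lists, 10.0 kb away (5459884 to 5460144), was missing from 1 wild-type list and stood at 59.5 in the other and at 72.6 and 76.8 in Klf15-/-.

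Fbxo32 encodes atrogin-1, a ubiquitin ligase subunit known from muscle wasting. Its 4 sites, which were 2 without the second wild-type dexamethasone library, included 1 shared site, on chromosome 15 from 58090957 to 58091007, 41.0 kb from the point. It stood at 54.3 and 76.2 in wild type against 54.2 and 74.9 in Klf15-/-, without a vehicle summit. The most widely held Fbxo32 site, 83.0 kb away (57966915 to 57967158), was in 5 lists, with its highest percentile in the wild-type vehicle list (67.5, against 20.7 and 11.7 after dexamethasone). It stood at 5.03 in the second Klf15-/- vehicle list and at 1.68 in the second Klf15-/- dexamethasone list.

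**Figure D3:**
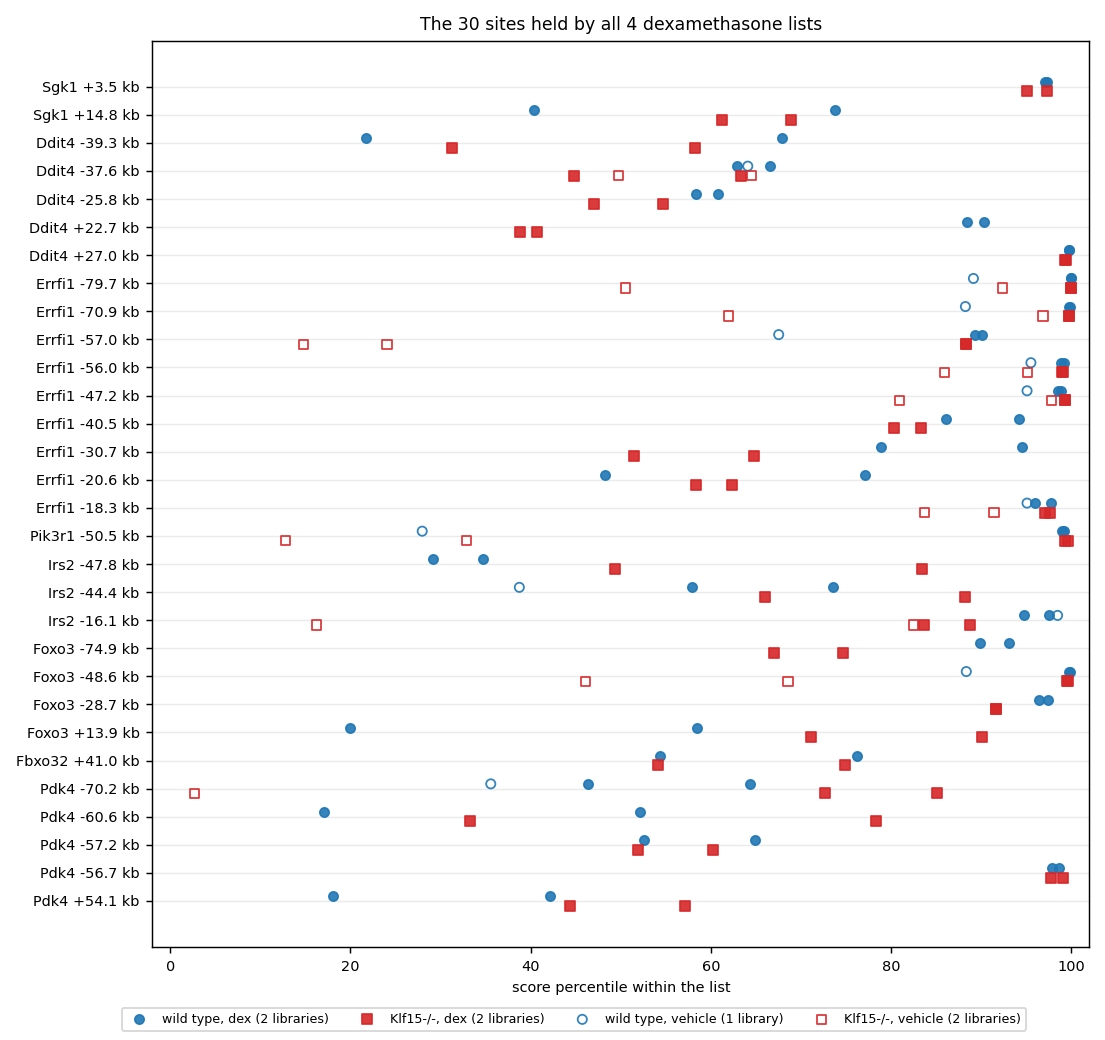
Score percentile within the list (horizontal axis, no unit) of the 30 sites held by all 4 dexamethasone lists, each labelled by its gene and its distance from the gene's point. Circles are wild type and squares Klf15-/-, filled after dexamethasone and open with vehicle, 1 symbol per library. The strongest sites of Errfi1, Foxo3, Pik3r1, Ddit4 and Pdk4 lie near the upper end in both genotypes, and Ddit4 at 22.7 kb has the widest gap, with 88.5 and 90.3 against 40.8 and 38.9.

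The comparison of genotypes asked whether receptor sites near these genes were held with and without Klf15. Only 2 sites (2.33%, against 2.93% of all sites) were held by both wild-type dexamethasone lists and by no Klf15-/- or vehicle list, near Ddit4 and Foxo3. The Ddit4 site (chromosome 10, 59460473 to 59460492) stood at 68.4 and 62.2, and was 23.5 kb from any Klf15-/- dexamethasone summit. The Foxo3 site (chromosome 10, 41964859 to 41964871) stood at 38.8 and 16.3, 6.38 kb from any. The reverse held for 7 sites (8.14%, against 6.55%): 3 near Errfi1, 2 near Irs2 and 1 each near Pik3r1 and Pdk4. Both shares were near those of the series.

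Of the 7, the Errfi1 site at 150156504 to 150156512 ranked highest, at 79.3 and 66.8, with a wild-type dexamethasone summit 2.67 kb away. The Irs2 site at 10921587 to 10921779 had 72.7 and 59.5, and the Pdk4 site at 5405600 to 5405611 had 71.9 and 64.6, with wild-type summits 6.62 and 12.3 kb away. The Pik3r1 site at 102496968 to 102497046 had 68.1 and 30.1, with one 7.49 kb away. Each site held by 1 genotype alone ranked below the strongest shared site of its gene in both of its lists. The other 2 Errfi1 sites (150213618 to 150213671 and 150245076 to 150245086) were below percentile 50 in both lists. So was the other Irs2 site (11044859 to 11044901). The nearest wild-type dexamethasone summits were 1.88, 0.98 and 50.9 kb away, in the same order.

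Among the 30 shared sites, both wild-type percentiles lay above both Klf15-/- percentiles at 11 (36.7%), against 20.2% of the 8977 such sites of the series, and the reverse held at 6, against 33.8%. The sites of the series were not matched for rank. The median absolute difference between genotype means was 4.0 percentile points, beside median gaps between replicates of 3.1 in wild type and 4.6 in Klf15-/-. These medians include the 10 sites at or above percentile 95 in all 4 dexamethasone lists, where the scale allows small gaps only. Among the 11, gaps ran from 0.08 points (Errfi1 at 70.9 kb), 0.21 (Foxo3 at 48.6 kb) and 0.36 (Ddit4 at 27.0 kb) up to 49.6 (Ddit4 at 22.7 kb). The share of summits per chromosome also differed between genotypes, on some of the chromosomes. On chromosome 10, which carries Sgk1, Ddit4 and Foxo3, wild-type dexamethasone lists had 7.75% and 7.44% of their summits and Klf15-/- lists 6.30% and 6.12%. On chromosome 8 (Irs2) the shares were 5.80% and 5.73% against 4.97% and 5.04%, and on chromosome 15 (Fbxo32) 5.80% and 5.95% against 4.88% and 5.01%. Chromosome 13 (Pik3r1) had a smaller gap in the same direction, 6.10% and 6.18% against 5.78% and 5.83%. On chromosome 4 (Errfi1) the Klf15-/- shares were the higher ones, 5.71% and 5.68% against 5.81% and 5.86%. The Errfi1 sites at 70.9, 57.0, 40.5 and 30.7 kb were among the 11. Shares overlapped on chromosomes 6 (Pdk4) and 3 (Foxo1).

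On chromosomes 8, 10 and 15, grouped because earlier results of these data showed lower Klf15-/- shares there, with chromosome 13 counted among the others, wild type was above at 7 of 15 sites (46.7%, against 26.6% of all such sites there) and below at 2 (13.3%, against 24.6%). On the other chromosomes it was above at 4 of 15 (26.7%, against 18.8%) and below at 4 (26.7%, against 35.8%). With percentiles taken among the summits of the same chromosome, an alternative chosen after the data were seen, wild type was above at 11 sites, 10 of them the same, and below at the same 6. By this measure the genotypes overlapped at the Errfi1 site at 70.9 kb, and the Ddit4 site at 37.6 kb took its place. The part of the chromosome shares in the result was not tested.

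Numbers of summits per window pointed both ways. Both wild-type dexamethasone lists had more summits than either Klf15-/- list near 3 genes (33.3%), against 7.14% of the 7754 tiles with a dexamethasone summit. These were the 3 genes of chromosome 10, where the share of tiles was 14.5%: Sgk1 with 7 and 7 against 2 and 4, Ddit4 with 9 and 9 against 8 and 6, and Foxo3 with 5 and 5 against 4 and 4. The reverse held near 3 genes (33.3%), against 25.2% of tiles (13.6% on chromosome 10): Errfi1 with 11 and 10 against 13 and 13, Pik3r1 with 1 and 3 against 5 and 8, and Irs2 with 4 and 4 against 7 and 8. The windows of Pdk4, Fbxo32 and Foxo1 overlapped. The tiles were not matched to the windows for number of summits. Over all 13213 tiles the median was 1 site, while the windows held between 2 (Foxo1) and 20 (Errfi1) sites. Klf15-/- dexamethasone lists were longer in all, and differences of 1 or 2 summits rest on few sites of varied rank. Examples are the wild-type only sites of Foxo3, at 38.8 and 16.3, and of Ddit4, at 68.4 and 62.2.

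**Figure D4:**
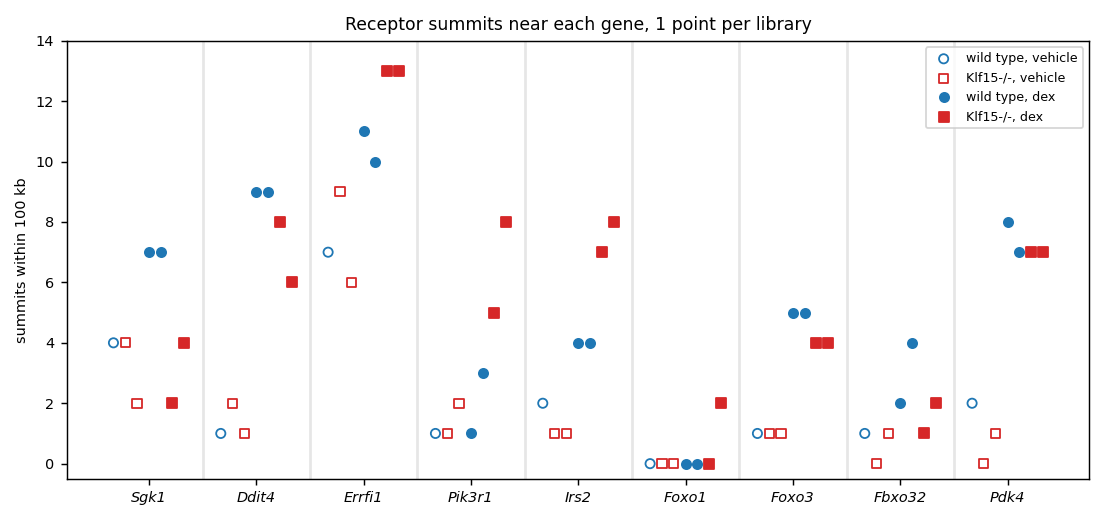
Number of summits within 100 kb of each gene (vertical axis, summits), 1 point per library. Circles are wild type and squares Klf15-/-, filled after dexamethasone and open with vehicle. Wild-type dexamethasone points lie above those of Klf15-/- at Sgk1, Ddit4 and Foxo3 and below them at Errfi1, Pik3r1 and Irs2.

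The summits on either side of the 100 kb bound were of mixed rank. At Errfi1 the outermost summit inside was 85.1 kb from the point, in 1 list at percentile 6.7, and the first outside was at 103.5 kb, in 1 list at 7.3. The first summit outside the Irs2 window, at 103.4 kb, belonged to a site of 5 lists with percentiles from 12.0 to 35.8. Inside, the outermost Foxo3 summit, at 75.0 kb, and the outermost Pdk4 summit, at 70.3 kb, belonged to shared sites already described. At Fbxo32 the outermost site inside reached 67.5, in the wild-type vehicle list, and the first outside, at 140.3 kb, reached 53.3.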

How the data were processed

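The 7 processed lists, 1 per ChIP-seq library, were analysed. The build mm9 and the tools CASAVA 1.4, Bowtie2 (version 2) and SAMtools come from the submitters' processing notes. Which peak caller, control and threshold were used is not given in the sources used here. Every deposited list gives summits of 1 bp with the authors' score, on an unstated scale, with lowest values per list between 3.01 and 3.38. The score was turned into a percentile (average rank) within its list. Coordinates are counted from 1. Sites were made by single linkage at 200 bp over all 98170 summits. Intervals are exact (Clopper-Pearson, 95%). No model was fitted and no p-value computed, since groups have 1 or 2 libraries. Tiles of 200 kb ran from the start to the last summit of each chromosome.

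The 9 genes, their points and the alternatives were chosen with earlier results of these data known. All 9 genes were named. Sites were named when they were in the most lists of a gene, nearest the point among sites of at least 2 lists, in all 4 dexamethasone lists, or in both dexamethasone lists of 1 genotype only. Promoter windows and gene order came from RefSeq (GRCm38.p6), matched by symbol, with no coordinates carried to mm9. Fbxo32 had no matched promoter window. Genes of the pathway beyond these 9 are not analysed here. Linkage and some of the classes were checked on simulated lists of widely spaced sites, which cannot show how closely spaced sites are joined. The software was matplotlib 3.10.9, scipy 1.17.1, pandas 2.3.3 and numpy 2.4.6 under Python 3.11.15.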

Additional observations from a re-analysis of the deposited data

How the results depend on the processing

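Of 236 values recomputed under alternatives, 173 stayed within 1.5 times the reported value and 63 moved. The 86 sites became 56 with windows of 50 kb, 136 with 200 kb, 48 with summits above the median score and 48 with lists cut to 7325 summits. The 10 sites of all 7 lists became 6 with linkage at 100 bp, 5 with windows of 50 kb and 5 above the median score. The 18 shared sites without a vehicle summit became 11 above the median score and 6 in lists of equal length, where vehicle lists lose fewer summits than dexamethasone lists. The 2 wild-type only sites became 1 with 50 kb and 5 with 200 kb, and the 7 Klf15-/- only sites became 3 above the median score and 2 in lists of equal length. Leaving out each replicate in turn gave 2 to 9 wild-type only sites (9 and 7 without the first or second wild-type dexamethasone library, 4 without either Klf15-/- one) and 7 to 16 Klf15-/- only sites (16 and 13 without the first or second Klf15-/- dexamethasone library), since with 1 library no repeat is asked of a site. The same step gave 78 to 86 sites in all, 10 to 11 in all lists and 18 to 20 shared sites without a vehicle summit. Foxo1 had no site without the second Klf15-/- dexamethasone library. No paired analysis was possible because these results are counts and ranks of listed sites, to which no test was fitted. Low-ranking sites are limited by depth, which is unknown.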
